A study of Mus musculus with 17 samples.

Results

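The subunits of the 5 complexes of oxidative phosphorylation are encoded partly in the nucleus and partly in mitochondrial DNA, and their RNAs were described across 17 mouse livers. Members were all genes of the liver table whose symbol starts as a subunit of complex I (Nduf with a, b, c, s or v and a number), complex II (Sdha to Sdhd), complex III (Uqcr), complex IV (Cox4 to Cox8) or complex V (Atp5), together with the mitochondrially encoded mRNAs of complexes I, III, IV and V. In all, 100 symbols matched. Of these, 95 passed a filter on low values (10 or more in 3 or more libraries), 82 of them nuclear and 13 mitochondrially encoded. It was passed by 16157 genes of the whole series. Of the 95, 92 were at 10 or more in every library. The other 3 were Ndufb4c, at 10 or more in 13 libraries, and Cox6b2 and Cox7a1, in 4 each. The 5 symbols that did not pass were Cox4i2, Cox6a2, Cox6c2, Cox8b and Ndufa11b, with mean values of 2.0, 0.474, 4.33, 0.689 and 6.18. The nuclear members comprised 40 genes of complex I, 4 of complex II, 8 of complex III, 13 of complex IV and 17 of complex V, and the mitochondrial genome contributed 7, 0, 1, 3 and 2.

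The mice were 8 weeks old and carried or lacked Khdc3, which is known for its maternal role in oocytes and early embryos. WT mice (n = 4) had WT ancestors and Khdc3-null KO mice (n = 3) had KO ancestors. WT_star females (n = 4) were WT in genotype and KO_star females (n = 6) were KO in genotype, and both were bred from heterozygous parents whose own parents included WT and KO animals. The labels give no strain, litter or batch and no sex for the WT and KO groups, so p-values measure the spread between these samples only. A deposited value is the number of reads in a gene divided by a size factor of the library, and the libraries held 17.62 to 26.7 M reads in genes. Khdc3 itself had 0 to 1 reads in WT, 2 to 3 in KO, 1 in each WT_star library and 0 to 4 in KO_star, too few in liver to check the genotype labels. The labels call the cell type hepatocyte. All 5 hepatocyte markers were detected in every library, and so were all 5 stellate cell and all 5 Kupffer cell and macrophage markers, so the RNA was that of liver tissue with several cell types. In such bulk samples fewer cells of a type and less RNA per cell cannot be told apart.

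Complex I takes electrons from NADH, complex II from succinate, complex III passes them from ubiquinol to cytochrome c and complex IV to oxygen, while complexes I, III and IV move protons across the inner membrane. Complex V, the ATP synthase, lets the protons return and makes ATP. Liver uses this ATP for gluconeogenesis, urea synthesis and lipid metabolism. The mitochondrial genome supplies core membrane subunits, complex II is wholly nuclear, and many nuclear members are small accessory subunits.

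The mitochondrially encoded mRNAs fell into 2 sets by their level, which was taken per length as reads per kb of transcript per M (mega) gene reads. mt-Co1, the catalytic core of complex IV, had a level per length of 10707 ± 598 (SD over 17 libraries). mt-Cytb, the cytochrome b of complex III, had 4137 ± 306, and mt-Nd1, a membrane subunit of complex I, 2375 ± 360. mt-Nd4, mt-Nd2, mt-Nd5 and mt-Nd6, all of complex I, had mean levels per length of 1386, 1293, 1048 and 388. The other 6 were far below this range in every library. mt-Co3 and mt-Co2, the further core subunits of complex IV, had mean levels per length of 85.03 and 46.7, mt-Atp6 and mt-Atp8 of the membrane part of complex V 30.1 and 9.62, and mt-Nd3 and mt-Nd4l of complex I 18.9 and 13.5.

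The annotation places near-identical copies of 7 of these genes side by side on chromosome 1, between 24611535 and 24616197 on the minus strand (GRCm38), as unprocessed pseudogenes. The copies of mt-Co2, mt-Atp6, mt-Co3 and mt-Nd4l had 0 mismatches over 681, 678, 783 and 294 aligned bases, which covered 99.6%, 99.6%, 99.9% and 99.0% of the mitochondrial gene. The copy of mt-Nd4 matched without a mismatch over 876 bases, 63.6% of the gene. In mt-Co1 the stretch without a mismatch was the last 479 bases, 31% of the gene. The stretches below show where a read could separate gene and copy, with the bases that differ in capitals. They are the left end of the copied part of mt-Co1 and the start of mt-Nd3, from the GENCODE M21 transcripts, 5′ to 3′, at chrM:6381-6440 with chr1:24616138-24616197 and at chrM:9459-9518 with chr1:24613060-24613119, the mitochondrial genes on the plus strand.
mt-Co1: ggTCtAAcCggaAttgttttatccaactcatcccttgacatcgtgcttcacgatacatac
Gm29216: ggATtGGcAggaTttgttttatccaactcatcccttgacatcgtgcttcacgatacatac
mt-Nd3: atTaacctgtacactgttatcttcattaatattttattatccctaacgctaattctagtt
Gm28438: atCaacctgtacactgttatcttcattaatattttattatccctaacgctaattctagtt
Counted from base 1 of mt-Co1, the copy Gm29216 carries T1056A, C1057T, A1059G, A1060G, C1062A and A1066T, and counted from base 1 of mt-Nd3, the copy Gm28438 carries T3C. Every other base compared was the same.

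Where the copy covered nearly the whole gene, gene and copy had values of the same order, although mt-Nd3 was below its copy in every library. The ratio of the mitochondrial gene's value to that of its copy had a median over the 17 libraries of 1.17 for mt-Co2, 0.886 for mt-Atp6, 1.04 for mt-Co3, 0.589 for mt-Nd3 and 0.903 for mt-Nd4l. For mt-Co1 and mt-Nd4, which have sequence outside the copied stretch, it was 331 and 194. mt-Atp8 has no annotated partner among these copies and was not compared. It lies at chrM:7766-7969, between mt-Co2 and mt-Atp6, whose copies are both in the block. It also overlaps the start of mt-Atp6 at 7927, so its value is uncertain as well. Reads of the shared stretches may be divided between gene and copy, or left out, by the authors' counting, so the values of mt-Co2, mt-Atp6, mt-Co3, mt-Nd3, mt-Nd4l and, in part, mt-Co1 and mt-Nd4 are uncertain. The part of the copies in the low levels was not tested.

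**Figure D1:**
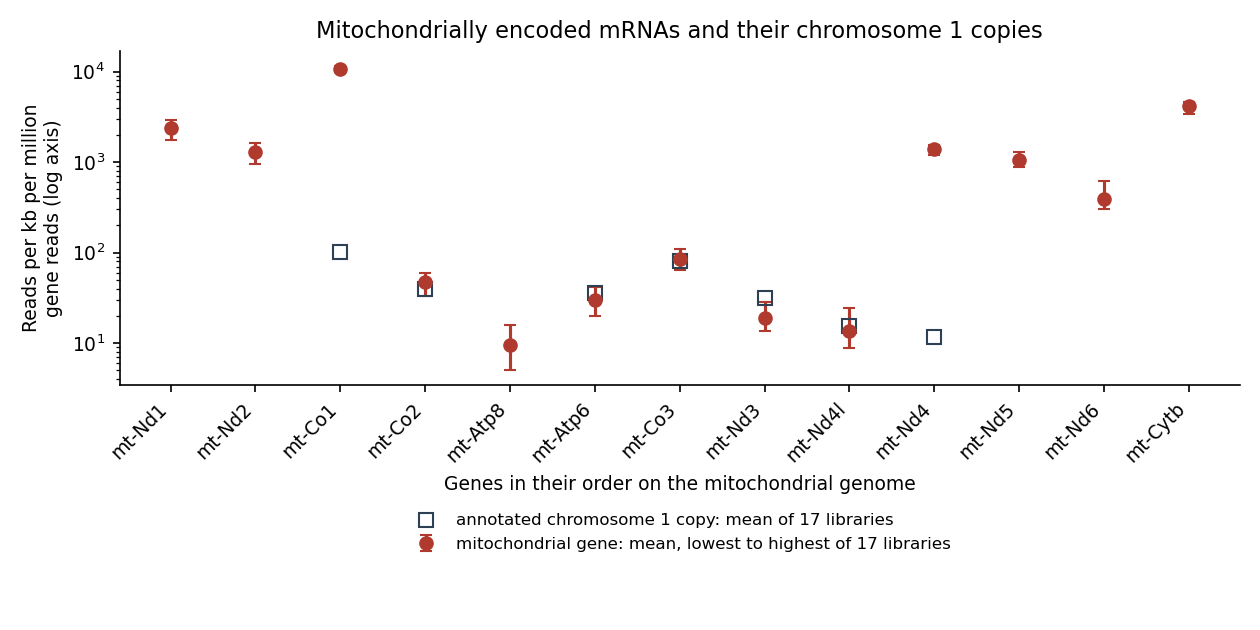
Level per length (reads per kb per M gene reads, log axis) of the 13 mitochondrially encoded mRNAs in genome order, with red points for the mean and bars from the lowest to the highest of 17 libraries, and open squares for the mean of the annotated chromosome 1 copy. mt-Co1 stood at 10707, while mt-Co2, mt-Atp6, mt-Co3, mt-Nd3 and mt-Nd4l lay close to their copies.

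Among the nuclear members, Atp5b, the catalytic beta subunit of complex V, had the highest level per length, 622 ± 54.5 (SD, 17 libraries), followed by Uqcrq, a small subunit of complex III, with 340 ± 23.0, and Atp5a1, the alpha subunit of complex V, with 326 ± 29.5. Atp5a1, Atp5g2 and Atp5g3 are named here after their values were seen. The complex medians of the level per length were 55.7 for complex I, 124 for complex II, 141 for complex III, 122 for complex IV and 106 for complex V. Complex I ran from Ndufa4 at 286 to Ndufa4l2 at 1.05, complex IV from Cox6b1 at 290 to Cox7a1 at 0.893. Ndufa4 and its relative Ndufa4l2 are grouped here by symbol only, although the Ndufa4 protein is now assigned to complex IV. In complex II, Sdhb, the iron-sulfur subunit, was highest at 131 and Sdhc, a membrane anchor, lowest at 54.7. In complex III the core protein Uqcrc2 was lowest at 99.2. In complex V the lowest was Atp5g1, at 33.9, and Atp5g2 had 34.6 and Atp5g3 285. These 3 genes encode the same mature c subunit of the rotor, so most of its RNA per length came from Atp5g3. Ndufb4c and Ndufs6b are annotated as processed pseudogenes, with levels per length of 1.57 and 5.09, and reads of them and of Ndufb4 and Ndufs6 may be divided between the copies.

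The isoforms known from heart, skeletal muscle or testis were low in liver, next to abundant liver isoforms of the same subunit. Cox6a1 had a level per length of 241 and its muscle isoform Cox6a2 0.0332. Cox8a had 227 and the muscle isoform Cox8b 0.0917. Cox4i1 had 263 and Cox4i2, which is known from lung, 0.131. Cox6b1 had 290 and the testis isoform Cox6b2 0.989. Cox7a2 had 122 and the muscle isoform Cox7a1 0.893. In deposited values, a floor of 3 reads corresponded to 2.38 to 3.55, and Cox6a2 and Cox8b were at 0 in 14 and 12 of 17 libraries. Cox7a1 and Cox6b2 had mean values of 8.25 and 9.02, above that floor.

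**Figure D2:**
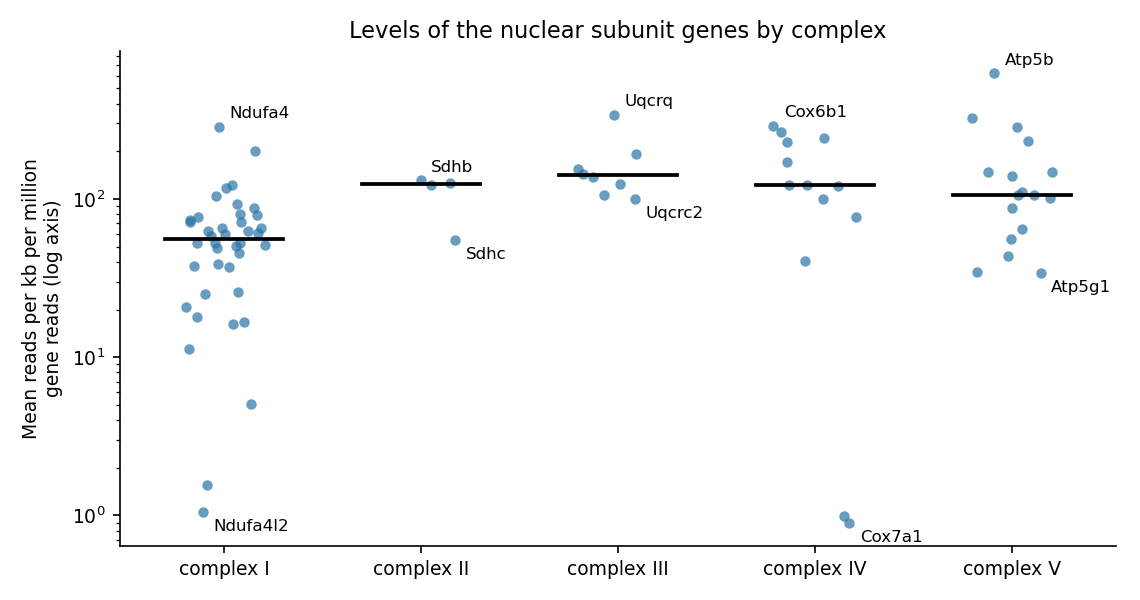
Mean level per length (reads per kb per M gene reads, log axis) of the 82 nuclear members by complex, with a point per gene and a line at the median. Complex I had the lowest median, 55.7, and Atp5b the highest level, 622.

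Together the 13 mitochondrially encoded mRNAs took 2.60% to 3.17% of the gene reads of a library, and the 82 nuclear members 0.712% to 0.984%. The mitochondrial share of the 4 WT libraries was 3.03% ± 0.0642 (SD), that of the 3 KO libraries 2.84% ± 0.203, that of the 4 WT_star libraries 2.87% ± 0.253 and that of the 6 KO_star libraries 2.87% ± 0.111. KO overlapped WT, from 2.67% to 3.07% against 2.93% to 3.08%. The nuclear share was 0.834% ± 0.0387 in WT, 0.836% ± 0.0284 in KO, 0.873% ± 0.119 in WT_star and 0.841% ± 0.0374 in KO_star, and all groups overlapped. The ratio of mitochondrial to nuclear reads was 3.63 ± 0.134 in WT, 3.40 ± 0.286 in KO, 3.31 ± 0.232 in WT_star and 3.42 ± 0.0770 in KO_star. mt-Co1 alone was 1 of the 10 genes with the most reads.

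The nuclear members of all 5 complexes were high or low together in several libraries. Each member was set against its own mean of log2(value + 1) over the 17 libraries. WT_star 20 stood highest, with 80 of 82 nuclear members above their mean and a median of 0.22 on the log2 scale. WT_star 21 followed with 76 above and a median of 0.10. WT_star 33 stood lowest, with 79 of 82 below their mean and a median of -0.23, and KO_star 29 had 74 below and a median of -0.12. The highest and the lowest library therefore belong to the same group. The complex medians in WT_star 33 ran from -0.20 for complex I to -0.27 for complex III, and in WT_star 20 from 0.21 for complex II to 0.27 for complex IV. The mitochondrially encoded mRNAs shared part of this pattern: 13 of 13 were below their mean in WT_star 33, with a median of -0.31, and 12 of 13 above it in WT_star 20, with 0.12. In WT_star 34 they parted, with 12 of 13 mitochondrial mRNAs below their mean and 49 of 82 nuclear members above it.

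**Figure D3:**
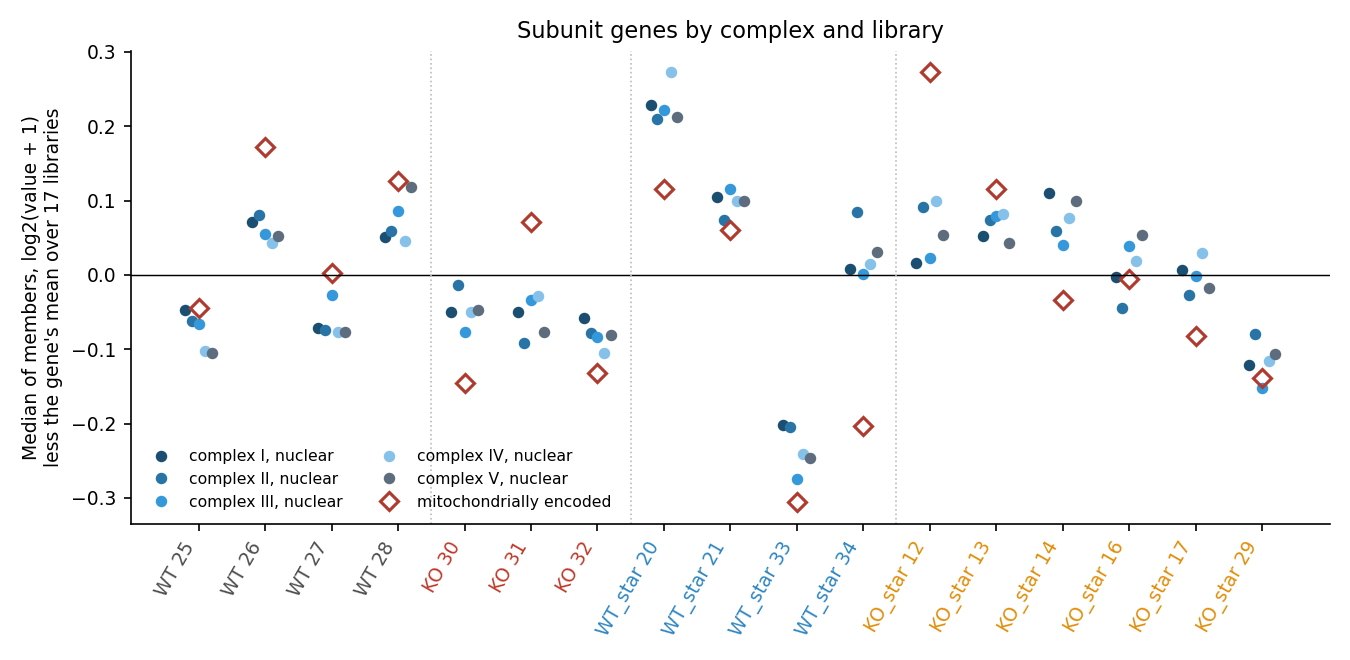
Median difference of the members from their own mean, on the log2(value + 1) scale, in each of 17 libraries, with filled points for the nuclear members of each complex and open diamonds for the mitochondrially encoded mRNAs. WT_star 20 is highest for the nuclear members, at a median of 0.22 over all 82, and WT_star 33 lowest at -0.23.

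Other gene classes were measured in the same libraries. The 84 cytosolic ribosomal protein genes had a median of -0.15 in WT_star 33 and 0.077 in WT_star 20. The nuclear members are short, 57 of 82 under 1000 bases of transcript with a median of 737 against 2437 over all genes tested. All tested genes under 1000 bases had a median of 0.076 in WT_star 20 and -0.021 in WT_star 33. The summed Kupffer cell and macrophage markers, 5 of 5 detected in every library, were 6126 in WT_star 33, the highest of 17 libraries, 3056 in WT_star 20 and 2981 to 6126 over WT_star, against 3059 to 3682 in WT, 3035 to 3633 in KO and 2839 to 5914 in KO_star. KO_star 13, at 5914, had a nuclear median of 0.051, above the mean. WT_star 33 also had the highest summed B and plasma cell markers, 246, and T cell markers, 62.3, of the 17 libraries. KO_star 29 and WT_star 33 had the fewest reads in genes, 17.62 and 17.70 M. KO 30 followed with 17.77 M and a nuclear median of -0.048, and WT_star 20 had 23.2 M. The part of these measures in the pattern was not tested. The median SD of a nuclear member on the log2 scale was 0.21 in WT_star, 0.12 in WT, 0.11 in KO_star and 0.062 in KO, while over all genes tested it was 0.22, 0.21, 0.23 and 0.15.

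Promoters of nuclear members were searched for motifs of NRF1, GABP and YY1, factors known to act on many respiratory genes. No link between these motifs and the pattern over libraries was tested. RefSeq promoters (GRCm38.p6), from 250 bases before to 50 after the start, matched 67 of the 82 nuclear members by symbol, with 72 promoters. A single arm of the palindromic NRF1 motif, GCGCATG, a length chosen after longer forms had been searched, was in 18.1% of them, against 3.91% of all 32851 promoters and 6.28% of the 13959 promoters of genes tested. The GABP motif CCGGAAG was in 23.6%, against 8.86% and 16.1%, and the YY1 motif AAGATGG in 15.3%, against 6.34% and 6.80%. Both strands were searched. A full NRF1 palindrome holds this arm on both strands, with an overlap of 4 bases, and no other matches overlapped in the promoters printed. Cox6a1, chosen for holding both an NRF1 and a GABP match, and Ndufb8, chosen for the differences between groups given below, are printed 5′ to 3′ with matches in capitals, at chr5:115348909-115349208 and chr19:44555393-44555692, both on the minus strand.
Cox6a1: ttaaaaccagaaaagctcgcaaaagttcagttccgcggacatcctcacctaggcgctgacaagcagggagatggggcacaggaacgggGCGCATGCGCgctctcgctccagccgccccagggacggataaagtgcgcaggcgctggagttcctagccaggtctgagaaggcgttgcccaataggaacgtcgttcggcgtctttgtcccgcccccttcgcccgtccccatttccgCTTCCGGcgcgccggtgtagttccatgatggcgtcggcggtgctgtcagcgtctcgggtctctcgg
Ndufb8: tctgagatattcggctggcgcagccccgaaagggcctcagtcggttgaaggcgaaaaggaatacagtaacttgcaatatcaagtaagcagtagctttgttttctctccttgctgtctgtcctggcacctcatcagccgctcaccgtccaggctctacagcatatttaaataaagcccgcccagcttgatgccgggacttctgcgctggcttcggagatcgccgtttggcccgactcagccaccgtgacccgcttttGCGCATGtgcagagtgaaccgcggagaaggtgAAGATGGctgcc
In Cox6a1 the NRF1 arm matches begin at -162 and -159 from the start and the GABP match, read on the other strand, at -16. In Ndufb8 the NRF1 arm match begins at 7 and the YY1 match at 39, both after the start. These matches are letters in a window and no measure of binding.

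KO and WT differ in genotype and in ancestry together, which cannot be told apart in this comparison. Between KO and WT, 3 of the 95 members passed the test (limma, adjusted p under 0.05 over 16157 genes), against 2.89% of all genes tested. Ndufa4l2 and Ndufb8 fell (1.57% of all genes were called lower) and Cox7a2l rose (1.32% higher). edgeR and DESeq2 called the same 3 members, against 2.71% and 5.36% of all genes. With library weights 6 members were called, against 7.92%.

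Ndufb8, an accessory subunit of the membrane arm of complex I that is often used as a marker of complex I assembly, lies on chromosome 19 at 44548572 to 44555440 (GRCm38). Its values were 1623, 1998, 1644 and 1760 in WT and 1318, 1353 and 1342 in KO. All 3 KO libraries were below all 4 WT libraries and close to each other. The log2 fold change was -0.39 (SE 0.094, limma adjusted p = 0.0350), a fold of 0.765. Left out in turn, WT 26, WT 28, KO 30, KO 31 and KO 32 each ended the call, with adjusted p up to 0.117, and so did equal library totals, a scaling that moved the median of all genes from 0.0079 to 0.074 (log2 fold changes of all settings -0.39 to -0.32). WT_star had 1771, 1623, 1281 and 1574, across the range of both, and KO_star 1385, 1440, 1384, 1473, 1395 and 1329, all below WT and close to KO. An overlapping predicted gene, Gm20538, had a mean of 0.328 ± 0.568 (SD, n = 3) in KO and 0 in the other groups. Of all genes, 2.89% were called in KO against WT, 0.904% in WT_star against WT and 0.706% in KO_star against WT. Within 1 Mb of Ndufb8, 1, 0 and 3 of 25 tested neighbours were called in these comparisons. Within 3 Mb, 6 of 87 were called in KO against WT, 6 of 87 in WT_star against WT and 9 of 87 in KO_star against WT. Of these, 4, 6 and 7 were called higher, the other direction from Ndufb8. In KO_star against KO, WT_star against KO and KO_star against WT_star, 0 of 87 were called (1.46%, 1.4% and 0% of all genes).

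Cox7a2l, which binds complexes III and IV into supercomplexes, lies on chromosome 17 at 83501918 to 83517330. Its values were 736, 799, 748 and 854 in WT and 1207, 1046 and 1191 in KO, with no overlap. The log2 fold change was 0.55 (SE 0.12, limma adjusted p = 0.0218), a fold of 1.46. Left out in turn, WT 25, WT 27, KO 30 and KO 32 each ended the call, with adjusted p up to 0.0998 and log2 fold changes of 0.51 to 0.61. WT_star had 797, 850, 913 and 1021, and KO_star 778, 785, 981, 928, 1167 and 972, both spread between the WT and KO values. The related subunit Cox7a2, chosen for mention after its values were seen, went the other way without passing the test, with 1556, 1722, 1853 and 1996 in WT and 1414, 1427 and 1355 in KO (log2 fold change -0.34, SE 0.13, limma adjusted p = 0.186). Within 1 Mb of Cox7a2l, 1 of 6 tested neighbours, Eml4, was called in KO against WT (2.89% of all genes), and it was lower.

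Ndufa4l2, a low-abundance relative of Ndufa4 known as a hypoxia-induced protein that lowers complex I activity, lies on chromosome 10 at 127514967 to 127517154. Its values were 28.5, 26.3, 31.96 and 29.4 in WT and 11.2, 11.5 and 12.8 in KO, again without overlap. The log2 fold change was -1.22 (SE 0.25, limma adjusted p = 0.0146), a fold of 0.428. Left out in turn, KO 30 and KO 31 each ended the call, with adjusted p up to 0.0672 and log2 fold changes of -1.28 to -1.18. WT_star had 13.4, 16.4, 15.3 and 25.8, all below WT and above KO, and KO_star 24.3, 23.2, 13.8, 21.4, 27.5 and 18.9. Shmt2, whose annotated span overlaps its end, had means of 4138 ± 218 (SD, n = 4) in WT and 4005 ± 457 (n = 3) in KO. Ndufa4 itself had 2638, 2791, 2703 and 2901 in WT and 2652, 2561 and 2581 in KO, with overlap.

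Cell type lists also differed between KO and WT, in both directions. The summed hepatocyte markers were 2346190 to 2447850 in WT, 1539130 to 1778540 in KO, 1797710 to 2035330 in WT_star and 1938920 to 2583110 in KO_star. Most of this sum was Alb, and of the 5 markers Alb and Cps1 were called lower in KO than in WT. Ttr overlapped between the groups, with means of 91243 in WT and 89395 in KO, and so did Serpina1a, with 14172 and 13390. Apoa1 was not called and overlapped as well, with a lower mean in KO, 90701 against 113512 in WT. The summed stellate cell markers, 5 of 5 detected in every library, were 4335 to 4793 in KO, 5457 to 6932 in WT, 4701 to 5679 in WT_star and 4347 to 7453 in KO_star, with Pdgfrb called lower in KO than in WT. The summed B and plasma cell markers were higher in KO, 156 to 186 against 68.9 to 130 in WT, with Igkc called higher, and were 127 to 246 in WT_star and 132 to 198 in KO_star. Their part in the values of Ndufa4l2, Cox7a2l and Ndufb8 was not tested.

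**Figure D4:**
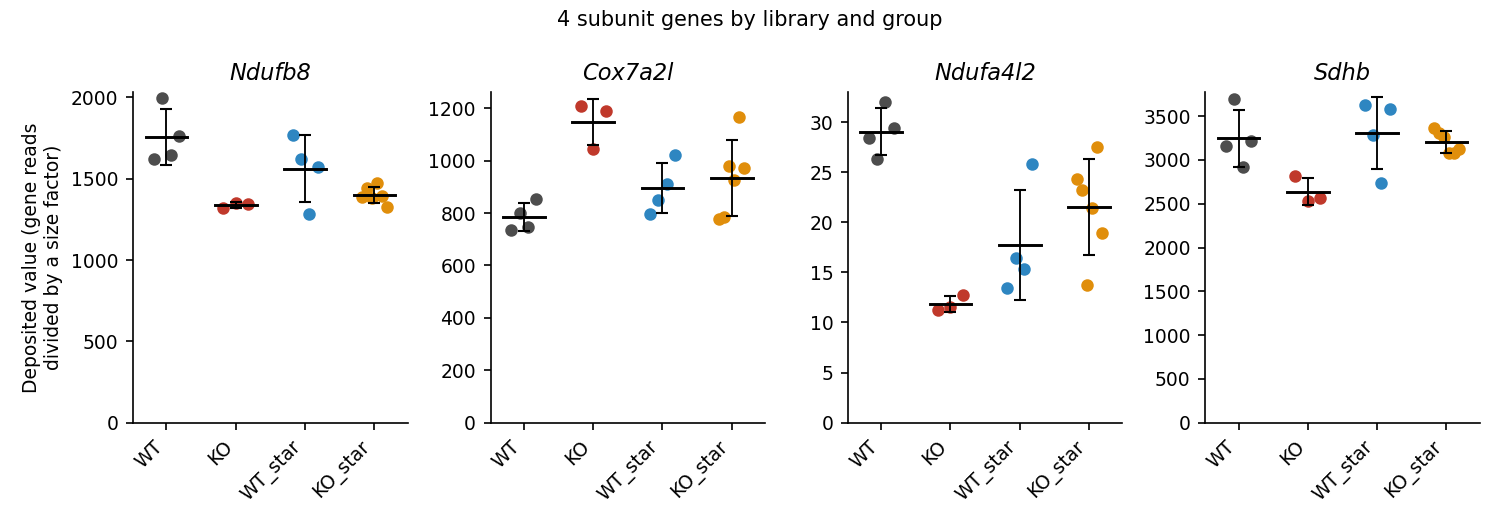
Deposited values (gene reads divided by a size factor, linear axes from 0) of Ndufb8, Cox7a2l, Ndufa4l2 and Sdhb, with a point per library and the mean with its SD per group (WT n = 4, KO n = 3, WT_star n = 4, KO_star n = 6). For each gene the 3 KO points lie outside the range of the 4 WT points.

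No other member passed the test between KO and WT, and 11 of 95 had an unadjusted p under 0.05, against 16.7% of all genes. Of the 82 nuclear members, 25 had a log2 fold change above 0 and 57 below, with a median of -0.074, and of the 13 mitochondrially encoded mRNAs 1 and 12, with a median of -0.16, against a median of 0.0079 over all genes. The 5 mitochondrial mRNAs outside the copied span (mt-Nd1, mt-Nd2, mt-Nd5, mt-Nd6 and mt-Cytb) had a median of -0.17, with 5 of 5 below 0. Complex III had 8 of 8 below 0 and complex V 14 of 17. Scaling to equal totals moved the median of all genes to 0.074 and the nuclear median with it, to -0.0076. The nuclear split was then 38 above 0 and 44 below, with 5 of 8 below 0 in complex III and 10 of 17 in complex V. The groups did not overlap for 17 of the 95 members, 5 higher and 12 lower in KO, which is near the 18.4% of all genes tested. The 95% interval of the fold lay within 1.5-fold either way for 71 of 82 nuclear and 10 of 13 mitochondrial members, against 49.9% of all genes. mt-Cytb had 95154, 103921, 104991 and 100808 in WT and 78266, 94579 and 91813 in KO (log2 fold change -0.20, SE 0.096, limma adjusted p = 0.298), without overlap. mt-Co1 had 352252 to 381074 in WT and 317454 to 351926 in KO (-0.16, SE 0.088, limma adjusted p = 0.383), also without overlap.

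Sdhb and Ndufa7 are named as well, chosen after their values were seen. Sdhb, on chromosome 4 at 140961203 to 140979193, had 3163, 3692, 2919 and 3211 in WT and 2820, 2528 and 2568 in KO (log2 fold change -0.30, SE 0.096, limma adjusted p = 0.112). Ndufa7, an accessory subunit of complex I on chromosome 17 at 33824572 to 33838317, had 1233, 1374, 1099 and 1192 in WT and 1481, 1399 and 1469 in KO (0.25, SE 0.079, limma adjusted p = 0.105). Neither overlapped between the groups, and neither passed this limma test. Ndufa7 was called in 3 of 11 settings, with equal totals (with or without mitochondrially encoded genes) and with library weights. Sdhb was called in 1 of 11, with library weights. The share of all genes called with equal totals is not given here.

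Between WT_star and WT, which differ in ancestry at the same genotype, limma called 0 members, against 0.904% of all genes. An unadjusted p under 0.05 was reached by 2 of 95 members (14.9% of all genes). edgeR called 0 members (0.675% of all genes), DESeq2 0 (3.73%) and limma with library weights 1, Ndufa4l2 (4.69%). All 13 mitochondrially encoded mRNAs had a log2 fold change below 0, with a median of -0.13, whereas 60 of 82 nuclear members were above 0, with a median of 0.031, and the median of all genes was 0.0021. For the 5 mRNAs outside the copied span the median was -0.042, with 5 of 5 below 0. Without WT_star 20 the nuclear median was -0.036 and without WT_star 33 it was 0.12. Leaving out 1 library gave mitochondrial medians from -0.17 (without WT_star 20) to -0.075 (without WT 26), and the weakest over all alternatives was -0.025. The WT_star libraries were split: 12 and 11 of the 13 mRNAs were above their mean over all libraries in WT_star 20 and 21. In WT_star 33 and 34, 13 and 12 were below it. With quantile normalization 11 of the 13 mitochondrial mRNAs were below 0, and with equal totals, where all genes had a median of 0.042, 10. The members with the smallest p were Ndufa4l2, mt-Nd1 and Ndufa2. Ndufa4l2 had a log2 fold change of -0.72 (SE 0.24, limma adjusted p = 0.146), with all WT_star libraries below all WT libraries, the only one of the 95 members without overlap (8.95% of all genes). mt-Nd1 had 46595, 58723, 55174 and 59432 in WT and 54152, 51300, 34981 and 39344 in WT_star (-0.31, SE 0.15, limma adjusted p = 0.329), with overlap. Ndufa2, an accessory subunit of complex I, had 637 to 735 in WT and 717 to 885 in WT_star (0.21, SE 0.099, limma adjusted p = 0.340), with overlap.

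Between KO_star and WT_star, the genotypes within mixed ancestry, limma called 0 members, and 0% of all genes tested. An unadjusted p under 0.05 was reached by 1 of 95 members (7.33% of all genes). edgeR called 0 members (0% of all genes) and DESeq2 0 (0.384%), and 0 of 95 members were without overlap (1.38%). Nuclear members had a median log2 fold change of -0.014, with 35 above 0 and 47 below, and mitochondrial mRNAs 0.10, with 11 above and 2 below, against 0.00072 over all genes. The nuclear median was 0.053 without WT_star 20, 0.012 without WT_star 21, 0.019 without KO_star 29 and -0.094 without WT_star 33. The mitochondrial median was -0.013 with library weights, and 0.033 without WT_star 33 and 0.16 without WT_star 20. For the 5 mRNAs outside the copied span it was 0.11, with 4 above 0 and 1 below. The 95% interval lay within 1.5-fold for 78 of 82 nuclear and 11 of 13 mitochondrial members. The smallest p belonged to Ndufa12, an accessory subunit of complex I, with 1268, 1181, 812 and 990 in WT_star and 770 to 1070 around a median of 859 in KO_star (-0.25, SE 0.12, limma adjusted p = 0.681). The values overlapped. Ndufb8 followed with -0.15 (SE 0.080, limma adjusted p = 0.726) and Uqcrfs1, the iron-sulfur protein of complex III, with -0.11 (SE 0.074, limma adjusted p = 0.796).

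Between KO_star and KO, which share the genotype and differ in ancestry, limma called 0 members, against 1.46% of all genes. An unadjusted p under 0.05 was reached by 12 of 95 members (17.7% of all genes). edgeR called 0 members (1.29% of all genes), DESeq2 called Cox7b and Sdhb, both higher in KO_star (5.46%), and limma with library weights 2, Ndufa4l2 and Sdhb (5.26%). Cox7b, a small subunit of complex IV, had 2170, 2291 and 2188 in KO and 2427 to 2997 around a median of 2710 in KO_star (log2 fold change 0.28, SE 0.087, limma adjusted p = 0.107). Sdhb had 3076 to 3366 around a median of 3197 in KO_star, all above KO (0.28, SE 0.089, limma adjusted p = 0.115). Ndufa4l2 was also without overlap (0.78, SE 0.24, limma adjusted p = 0.102). In all, 9 of 95 members did not overlap, all higher in KO_star, against 11.1% of all genes for either direction. Nuclear members had a median of 0.066, with 62 above 0 and 20 below, against -0.0023 over all genes. With equal totals the median of all genes was -0.049, the nuclear median 0.019 and the split 46 and 36. The mitochondrial mRNAs had a median of 0.054, which was -0.025 with quantile normalization. For the 5 outside the copied span it was 0.23, with 3 above 0 and 2 below.

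Between KO_star and WT, limma called 0 members, against 0.706% of all genes. An unadjusted p under 0.05 was reached by 5 of 95 (12.1% of all genes). edgeR called 0 members (0.693% of all genes), and DESeq2 (2.11%) and limma with library weights (1.24%) each called Ndufb8, which was lower. In limma Ndufb8 had a log2 fold change of -0.32 (SE 0.080, limma adjusted p = 0.0729), a fold of 0.800, and it was the only one of the 95 members whose groups did not overlap, against 2.89% of all genes. Without WT_star 33, limma called it. Ndufa2 (0.22, SE 0.091, limma adjusted p = 0.329) and Ndufa3 (0.18, SE 0.075, limma adjusted p = 0.347), both accessory subunits of complex I, came next, and both overlapped. The medians were 0.0082 for nuclear and -0.038 for mitochondrial members, against 4.5e-05 over all genes. For the 5 mRNAs outside the copied span the median had the other sign, 0.024, with 3 above 0 and 2 below. Leaving out 1 library gave nuclear medians from -0.015 (without WT 27) to 0.046 (without WT 26) and mitochondrial medians from -0.092 (without KO_star 12) to 0.037 (without WT 26).

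Between WT_star and KO, limma called 0 members, against 1.4% of all genes. An unadjusted p under 0.05 was reached by 15 of 95 members (13.8% of all genes). edgeR called 0 members (1.24% of all genes), DESeq2 called Sdhb, which was higher in WT_star (3.26%), and limma with library weights called 12 (5.9%). Sdhb had 3623, 3289, 2738 and 3580 in WT_star (log2 fold change 0.32, SE 0.096, limma adjusted p = 0.121), with WT_star 33 inside the KO range. Without that library limma called Sdhb, Cox7a2, Ndufb10 and Ndufc2. The share of all genes called in that fit is not given here, so these calls cannot be set against it. Ndufa7 (-0.24, SE 0.079, limma adjusted p = 0.169) and Cox7a2l (-0.36, SE 0.12, limma adjusted p = 0.177) were lower in every WT_star library than in every KO library. In all, 4 members were without overlap and higher and 2 lower, against 16% of all genes. All 17 nuclear members of complex V had a log2 fold change above 0, with a median of 0.096, and 16 of 17 with equal totals. The nuclear median was 0.096 (64 above 0, 18 below) and the mitochondrial median -0.031, against -0.0043 over all genes. For the 5 mRNAs outside the copied span the median had the other sign, 0.12, with 3 above 0 and 2 below. Leaving out 1 library gave nuclear medians from 0.029 (without WT_star 20) to 0.18 (without WT_star 33) and mitochondrial medians from -0.074 (without WT_star 20) to 0.049 (without WT_star 34).

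**Figure D5:**
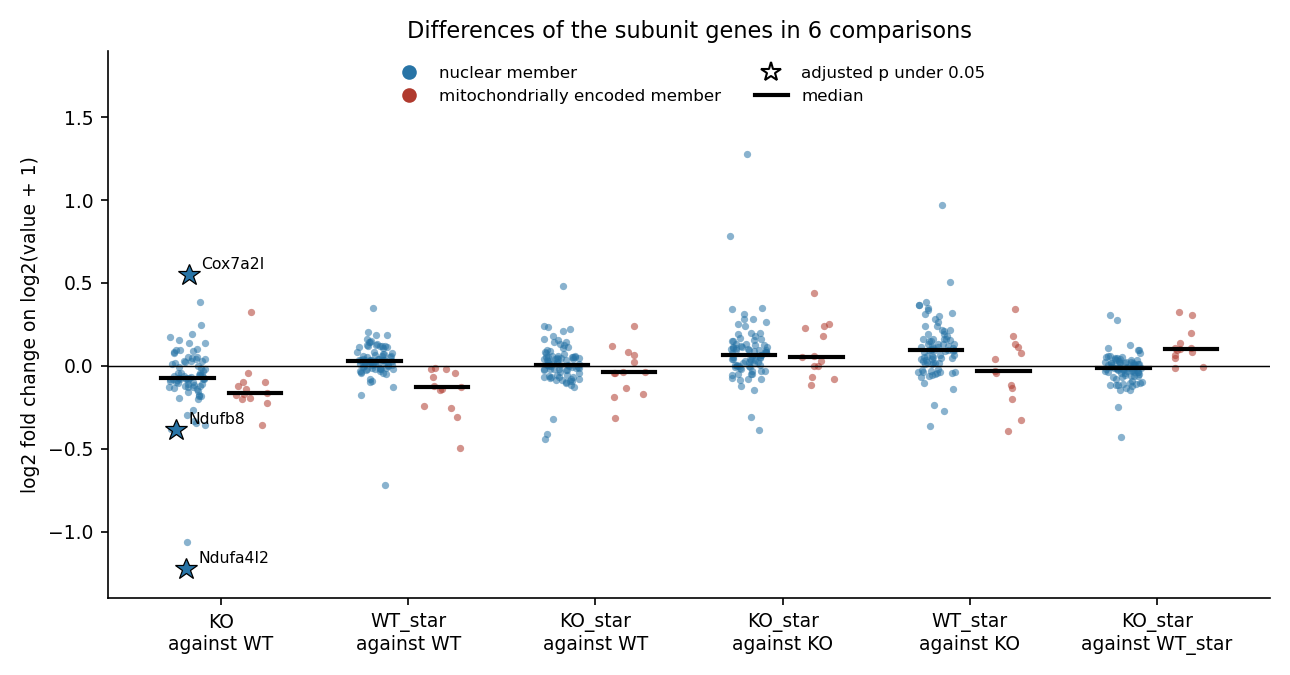
Log2 fold changes on the log2(value + 1) scale in 6 comparisons, with a point per nuclear (blue) and mitochondrially encoded (red) member, a line at the median of each set and stars for limma adjusted p under 0.05. Stars appear only in KO against WT, for Cox7a2l, Ndufb8 and Ndufa4l2. The comparisons share groups and are not independent.

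The interaction asked whether the difference between genotypes depended on ancestry, as KO_star minus WT_star less KO minus WT. KO and WT differ in genotype and ancestry together, so KO minus WT is not a difference of genotype alone. The interaction was called for 1 of 95 members, Ndufa4l2, against 1.29% of all genes. Its difference was -1.22 between KO and WT and 0.28 between KO_star and WT_star (SE 0.21). That gave an interaction of 1.5 on the log2 scale (SE 0.33, limma adjusted p = 0.0339). Left out in turn, each of the 4 WT and 3 KO libraries, WT_star 20, WT_star 21 and KO_star 12 ended the call, with adjusted p up to 0.0936 and values of 1.39 to 1.69. edgeR (1.28% of all genes) and DESeq2 (4.48%) also called it. Cox7a2l (-0.49, SE 0.16, limma adjusted p = 0.135) and Cox6b2 (1.37, SE 0.60, limma adjusted p = 0.262) came next. Cox6b2 had low values, in KO 32 under the floor of 3 reads. Its values were 8.00 to 11.1 in WT, 0.984 to 7.85 in KO, 4.70 to 12.6 in WT_star and 8.28 to 19.0 in KO_star. Its highest library, KO_star 16, also had the highest sums of skeletal and heart muscle markers, 658 against 0 to 10.6 in the other libraries, and of pancreatic acinar markers, 2910 against 276 to 739, whose part was not tested. In WT, KO and WT_star the acinar sum was nearly all Cela1, with means of 578, 291 and 657. Prss2 and Pnlip were at 0 in those groups. The nuclear members had a median interaction of 0.045 and the mitochondrial mRNAs 0.24, with 12 of 13 above 0, against -0.0075 over all genes. For the 5 mRNAs outside the copied span it was 0.25, with 5 of 5 above 0. With equal totals, where all genes had a median of -0.094, the nuclear median was -0.042.

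The wider mitochondrial programme was read from lists of genes outside the members. For scale, limma called 2.89% of all genes in KO against WT, 0.904% in WT_star against WT and 1.4% in WT_star against KO. It called 0.706% in KO_star against WT, 1.46% in KO_star against KO, 0% in KO_star against WT_star and 1.29% in the interaction. Single calls in the lists below are to be set against these shares. Of 46 assembly factors tested, 1 rose in KO against WT and in WT_star against WT, and 0 fell. It was Ndufaf1, an assembly factor of complex I, with a mean of 366 ± 11.6 (SD) over the 4 WT libraries, 534 ± 5.87 over the 3 of KO, 528 ± 73.3 over the 4 of WT_star and 476 ± 63.8 over the 6 of KO_star. Its log2 fold changes were 0.54 (SE 0.12, limma adjusted p = 0.0169) and 0.52 (SE 0.11, limma adjusted p = 0.0310), and its interaction -0.69 (SE 0.15, limma adjusted p = 0.0325). Of 20 genes of mitochondrial DNA maintenance and transcription, 1 was called in any of the 6 comparisons and the interaction, Tk2, the mitochondrial thymidine kinase, lower in WT_star (285 ± 17.4) than in KO (393 ± 24.6; log2 fold change -0.46, limma adjusted p = 0.0441). Of 77 mitochondrial ribosomal proteins, 1 was called, Mrps25, higher in WT_star (214 ± 18.1) than in KO (155 ± 12.9; 0.46, limma adjusted p = 0.0360). None was called among 22 genes of mitochondrial RNA processing, 15 regulators of mitochondrial biogenesis, 19 of the TCA cycle, 27 respiratory chain genes not matched by the symbols used here or 9 mitochondrial tRNAs and rRNAs. At an unadjusted p under 0.05, these lists had 3, 2, 2, 4 and 3 genes in KO against WT, where 16.7% of all genes did.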

How the data were processed

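Per the labels' protocols, total RNA of 17 livers went through an rRNA-depleting, stranded library kit. The authors deposited normalized signal values, the reads of a gene over the library's size factor. With a tolerance of 0.001 reads, 100.0% of values came out as whole reads, worth 0.792 to 1.182 each. Cutadapt, HISAT2, DESeq2 and GRCm38 are named without versions, per the submitters' processing notes. No source used here states the counting tool, annotation or strand setting, so antisense partners cannot be separated. Of the gene IDs, 26963 matched GENCODE M21, which gave positions and lengths (median over basic coding transcripts).

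log2(value + 1) was tested with limma 3.58.1 (R 4.3.3, statmod 1.5.0): 1 mean per group over all libraries, trended robust variance, two-sided, Benjamini-Hochberg adjustment over 16157 genes, threshold 0.05. edgeR 4.0.16 and DESeq2 1.42.0 on the recovered counts, derived from the deposited values, were alternatives; the script was tested on simulated data. Copies were aligned with Biopython 1.88. Floors (3 reads) cover counting error only. Named members are those called per comparison or, where fewer than 3 were, the 3 with the smallest p, Ndufb8, the mitochondrial mRNAs, the extremes per complex and tissue isoforms; others are said to be chosen after their values were seen. Members and lists were chosen with earlier results of these data known.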

Additional observations from a re-analysis of the deposited data

Results flagged for a closer look

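A sample lay far from the others of its group in 4 of 114 groups of 4 to 6 libraries tested for the named members, or 3.51%, where chance gives about 1 in 20. KO_star 12 had the highest mt-Atp8, 69.9 against 32.2 to 41.2 in the other KO_star libraries, and the highest Cox7a1, 17.2 against 6.63 to 9.50. WT 25 had the lowest mt-Co1 of its group, 352252 against 377422 to 381074. WT 26 had the highest mt-Nd4, 46821 against 39676 to 40755.

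For Ndufa4l2, KO_star minus WT_star differed from KO minus WT by 1.5 on the log2 scale, in the test of the interaction itself (limma adjusted p = 0.0339).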

How the results depend on the processing

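No member changed sign between settings in the 24 pairs of gene and comparison followed, and of their alternative fits 620 kept their side of the threshold, 25 lost a call and 19 gained one. Of 12 medians over nuclear or mitochondrial members, 7 changed sign under at least 1 alternative. In KO against WT, Ndufa4l2 was called in 10 of 10 settings that tested it, Cox7a2l in 11 of 11 and Ndufb8 in 8 of 11, where equal totals (with or without mitochondrially encoded genes) and no filter lost it. Both equal-totals scalings called Ndufa7 in place of Ndufb8. With library weights 6 members were called, adding Cox7a2, Ndufa7 and Sdhb. Leaving out 1 library gave 0 to 4 calls: 0 without KO 30, 1 without KO 31 (Cox7a2l), 1 without KO 32 (Ndufa4l2). In the comparisons with 0 calls, library weights gave 1 (WT_star against WT), 2 (KO_star against KO), 1 (KO_star against WT) and 12 (WT_star against KO), and DESeq2 2, 1 and 1 in the last 3; leaving out WT_star 33 gave 1 in KO_star against WT and 4 in WT_star against KO, with ranges of 0 to 1 and 0 to 4. The interaction had 0 calls with no filter and with a filter of 50, where Ndufa4l2 was not tested, and 0 to 1 without each library. For the fits without 1 library the share of all genes called is not given here, so their counts cannot be set against it. The cause was not tested. Set against the reads of all other genes, the mitochondrial reads of WT came to 3.13%. Outside the 10 genes with the most reads, the mitochondrial mRNAs other than mt-Co1 took 1.64%, 1.49%, 1.52% and 1.59% in WT, KO, WT_star and KO_star. The nuclear shares there were 1.06%, 1.03%, 1.08% and 1.06%. These denominators leave out mt-Co1 or albumin by construction. As mt-Co1 is also left out of the reads counted, the mitochondrial shares outside the 10 genes do not compare with those of all 13 mRNAs. No paired analysis was possible because no replicate number occurs in more than 1 group. Group sizes of 3 to 6 limit all tests, and depth limits Cox6b2, Cox7a1 and the 5 symbols under the filter.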
